A study of Coturnix japonica with 4 samples.

Results

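The genes described here are PMP22, CNP, FABP7, CDH19, NGFR, GFRA3 and EGR2, which are used as Schwann cell genes, together with the receptor phosphatase PTPRZ1. They are 8 of the 12383 genes kept from an RNA sequencing table of embryonic quail skin, and all 8 were found in it by their symbols. They were chosen by name with the results of the same stripe comparison already known, namely the ratio of PTPRZ1 and the ratios of the other 7 genes. Their own ratios and the authors' p-values and q-values are therefore given as a description and not as a test. The tissue was skin of Japanese quail (Coturnix japonica) at embryonic day 7, taken from untreated eggs and dissected into black stripes and yellow stripes. There were 2 libraries for each stripe, and each library pooled the tissue of 4 embryos. The analysed table holds 1 value per stripe in RPKM, read counts scaled to transcript length and to the mapped reads of the library, so levels can be set side by side between genes, but no spread between libraries and no SD can be given. The values are called black-labelled and yellow-labelled because pigment genes ran against those names: TYRP1, an enzyme of black melanin, had 2.71 RPKM in black-labelled skin against 68.2 RPKM in yellow-labelled skin. In dissected skin, fewer cells of a type and less RNA per cell cannot be told apart.

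Schwann cells are the glia of peripheral nerves. They arise from the neural crest through Schwann cell precursors that travel along growing nerves into the skin, and such precursors are also a source of melanocytes in bird and mammal skin. The transcription factor SOX10 marks the whole lineage, neuregulin acting on ERBB3 keeps precursors alive, and EGR2 later turns on the myelin genes. PTPRZ1 is a transmembrane tyrosine phosphatase, best known from glia of the central nervous system. It carries chondroitin sulfate chains and binds pleiotrophin, midkine, tenascins and contactin 1.

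PTPRZ1 had 10.8 RPKM in black-labelled skin against 22.5 RPKM in yellow-labelled skin, a 2.08-fold higher level in yellow-labelled skin. The other 7 genes showed no shared direction: NGFR, CNP, CDH19 and EGR2 were higher in black-labelled skin, and PMP22, FABP7 and GFRA3 in yellow-labelled skin. Of these 7, GFRA3 had the ratio farthest from equal, 1.83-fold, with 0.20 RPKM in black-labelled skin against 0.37 RPKM in yellow-labelled skin. By the authors' deposited table, 1 of the 8 genes, PTPRZ1, fell under a q-value of 0.05, and it was also the only one with a nominal p, meaning one not adjusted for the number of genes, under 0.05. Of the 8 genes, 7 are among the 10569 genes with a p under 1 in that table, and GFRA3 is not. Of those 10569 genes, 0.331% had a q-value under 0.05, split into 0.17% higher in black-labelled skin and 0.161% higher in yellow-labelled skin. A nominal p under 0.05 was given to 3.46% of them, split into 2.07% higher in black-labelled skin and 1.39% higher in yellow-labelled skin. Since the genes were chosen with this contrast known, nothing is read from their count. The log2 ratio of black over yellow had a median of -0.03 over the 8 genes and of -0.00 over the 10061 genes whose mean of both stripes reached 1 RPKM, the level from which a gene is called measured here. Of these 10061 genes, 5005 were higher in black-labelled and 5049 in yellow-labelled skin, the background for the direction counts of lists below. No direction count was tested. Of the 8 genes, 6 were measured in this sense. CDH19 and GFRA3 were not.

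**Figure D1:**
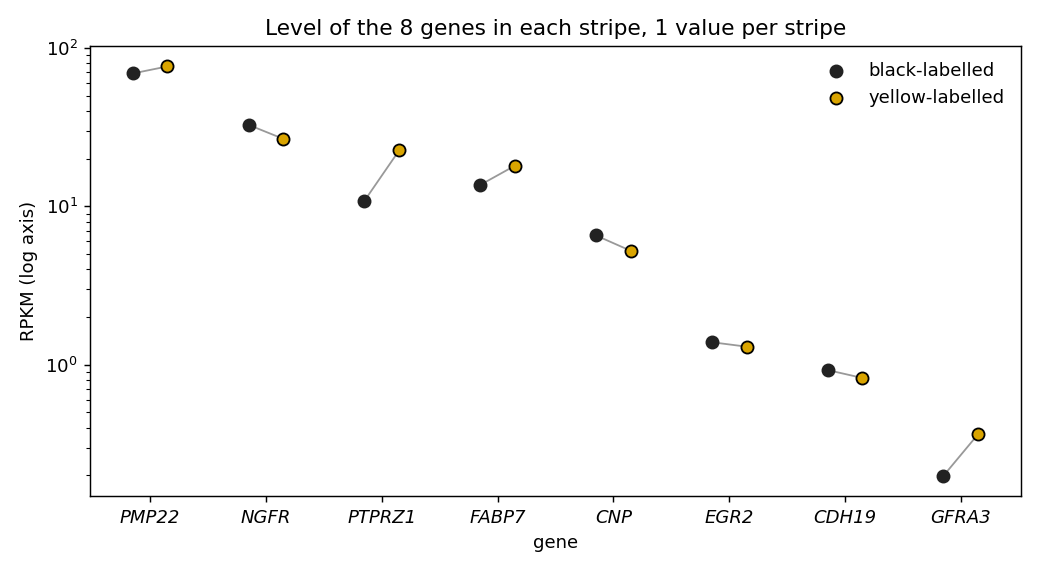
RPKM of each of the 8 genes (log axis) in black-labelled (left point) and yellow-labelled (right point) skin, ordered by mean level. There is 1 value per stripe and no error bar. The highest point is PMP22 in yellow-labelled skin at 76.5 RPKM, the lowest is GFRA3 in black-labelled skin at 0.20 RPKM, and the line of PTPRZ1 is the steepest among the genes above 1 RPKM.

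The 8 genes differed far more in level than between stripes. PMP22 ranked 868 by mean RPKM among the 12383 genes, NGFR 2548, PTPRZ1 4569, FABP7 4759, CNP 7825, EGR2 9791, CDH19 10181 and GFRA3 10986. PTPRZ1 and FABP7 were thus neighbours in this order, with means of 16.7 and 15.9 RPKM. In black-labelled skin FABP7 was the higher of that pair and in yellow-labelled skin PTPRZ1 was, a crossing that no other neighbouring pair of the 8 genes showed. Whether neighbours in the order differ beyond the spread between libraries cannot be said with 1 value per stripe.

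The label of Schwann cell genes was set against markers of that lineage, and several markers of Schwann cells were almost absent. S100B, a calcium-binding protein of glia, was listed at 0.04 RPKM in black-labelled skin and at 0 in yellow-labelled skin. DHH, the hedgehog ligand secreted by Schwann cells and their precursors, was listed at 0.07 RPKM in black-labelled skin and at 0 in yellow-labelled skin. GFAP, an intermediate filament of immature and non-myelinating Schwann cells, had 0.22 RPKM in black-labelled skin against 0.20 RPKM in yellow-labelled skin. MBP, a myelin protein also made outside myelin, reached 2.06 RPKM in black-labelled and 1.88 RPKM in yellow-labelled skin. Lineage genes shared with melanoblasts and other neural crest cells were present. SOX10 had 22.4 RPKM in black-labelled skin against 25.2 RPKM in yellow-labelled skin, and ERBB3 had 3.28 RPKM in black-labelled and 3.13 RPKM in yellow-labelled skin. Of the 18 myelin genes considered and found in the table, 8 averaged at least 1 RPKM and 10 did not. S100B and the junction protein CLDN19, 2 of those 10, stayed under 0.1 RPKM in both stripes. Among precursor and immature glia markers, 13 of the 17 found averaged at least 1 RPKM, and 2, S100B and DHH, stayed under 0.1 RPKM in both stripes. Because markers of the lineage were thus mixed, the members are called the 8 genes, or by their own names, and not Schwann cell transcripts.

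**Figure D2:**
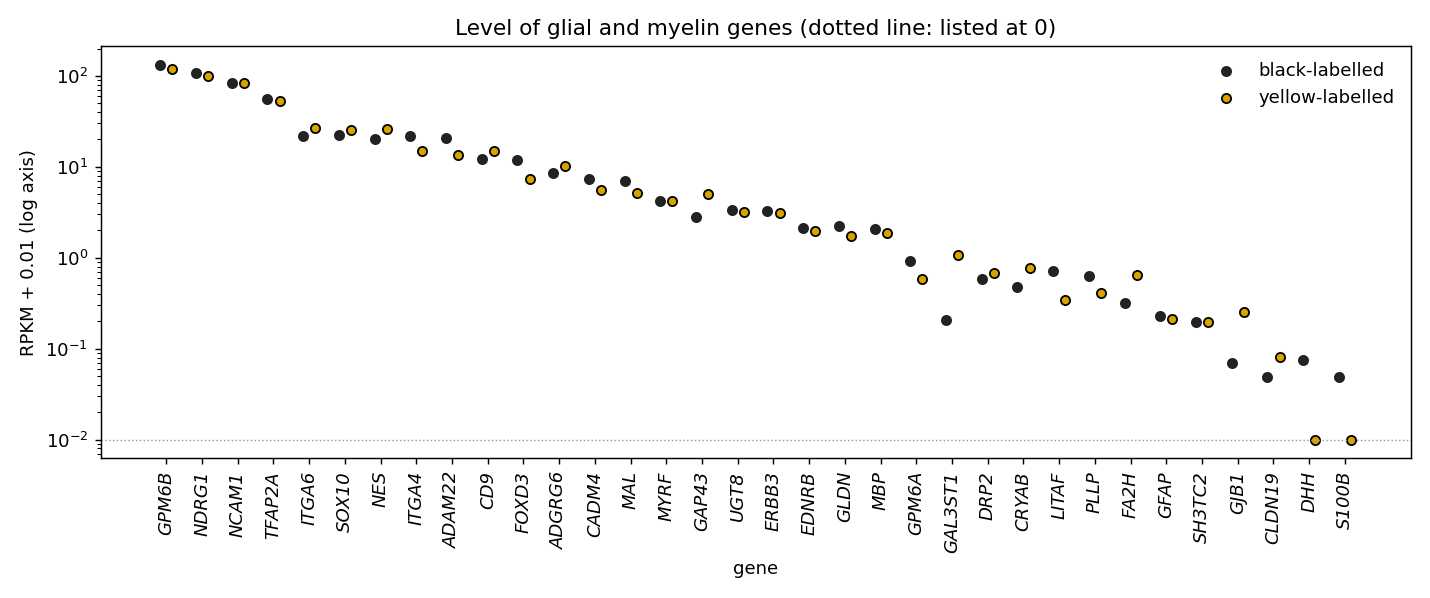
RPKM plus 0.01 (log axis) of the precursor, immature glia and myelin genes found in the table, black-labelled left and yellow-labelled right, ordered by mean level; the dotted line marks genes listed at 0. S100B, DHH and CLDN19 lie at the low end, under 0.1 RPKM, while SOX10 lies above 20 RPKM in both stripes.

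PMP22 and CNP are known from the myelin sheath. PMP22, a small membrane protein of compact peripheral myelin that fibroblasts and epithelia also make, had 69.0 RPKM in black-labelled skin against 76.5 RPKM in yellow-labelled skin, a log2 ratio of -0.15. It was the most abundant of the 8 genes. Its relatives of the epithelial membrane protein family had similar levels, EMP2 with 75.3 RPKM in black-labelled skin against 87.0 RPKM in yellow-labelled skin and EMP1 with 74.1 RPKM in black-labelled and 61.5 RPKM in yellow-labelled skin. PERP, a related junction protein of epithelia, had 12.8 RPKM in black-labelled and 13.3 RPKM in yellow-labelled skin. Of the 5 family members found in the table, 4 were measured, with a median log2 ratio of 0.02 that became -0.06 at a floor of 5 RPKM, and 0 had a nominal p under 0.05 in the authors' deposited table.

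CNP, an enzyme that cleaves cyclic nucleotides and lies in the cytoplasmic channels of myelin, had 6.55 RPKM in black-labelled skin against 5.24 RPKM in yellow-labelled skin. The log2 ratio was 0.32, the highest of the 8 genes, with p = 0.233 in the authors' deposited table. The myelin list around these genes had 8 measured members, 7 of them higher in black-labelled skin, with a median log2 ratio of 0.12. The most abundant were GPM6B, a membrane proteolipid, with 132.8 RPKM in black-labelled skin against 118.2 RPKM in yellow-labelled skin, NDRG1 with 107.4 RPKM in black-labelled and 99.8 RPKM in yellow-labelled skin, and CD9, a tetraspanin, with 12.1 RPKM in black-labelled and 14.8 RPKM in yellow-labelled skin. No list member had a q-value under 0.05. Of the 18 found, 1 had a nominal p under 0.05 in the authors' deposited table, a call given to 3.46% of tested genes. The gene was GAL3ST1, the enzyme that makes the myelin lipid sulfatide, with 0.20 RPKM in black-labelled skin against 1.06 RPKM in yellow-labelled skin. Its values in the authors' deposited table were p = 0.0002 and q = 0.0537. GAL3ST1 averaged 0.63 RPKM and was not among the 8 measured members. With 1 RPKM added to both values its log2 ratio of -2.43 became -0.78. FA2H, which hydroxylates fatty acids of the same lipids, was not measured either. It had 0.30 RPKM in black-labelled skin against 0.64 RPKM in yellow-labelled skin with p = 0.0842 in the authors' deposited table. UGT8, which makes the galactolipid that GAL3ST1 uses, had 3.32 RPKM in black-labelled and 3.20 RPKM in yellow-labelled skin.

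FABP7 and CDH19 are markers of early glia and Schwann cell precursors. FABP7, a fatty acid binding protein of brain and precursor glia, had 13.6 RPKM in black-labelled skin against 18.1 RPKM in yellow-labelled skin. With a log2 ratio of -0.40 it was, after PTPRZ1, the measured member farthest from equal, and its p in the authors' deposited table was 0.177. Its 3 most abundant relatives were the retinoic acid binding protein CRABP2 (159.6 RPKM black-labelled, 148.2 RPKM yellow-labelled), the heart-type protein FABP3 (169.0 RPKM black-labelled, 128.9 RPKM yellow-labelled) and CRABP1 (97.3 RPKM black-labelled, 107.4 RPKM yellow-labelled), also a retinoic acid binding protein. FABP1 and FABP2 were listed at 0 in both stripes. Over the 4 measured relatives the median log2 ratio was 0.14, and 0 had a nominal p under 0.05.

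CDH19, a type II cadherin found in Schwann cell precursors of mammals, had 0.93 RPKM in black-labelled skin against 0.83 RPKM in yellow-labelled skin. Both values lie near 1 RPKM, where 1 value per stripe says little about a difference. Among its relatives CDH11, the mesenchymal cadherin, was the most abundant, with 245.7 RPKM in black-labelled skin against 247.8 RPKM in yellow-labelled skin. CDH5, the endothelial cadherin, had 38.8 RPKM in black-labelled and 35.8 RPKM in yellow-labelled skin. CDH20 had 7.02 RPKM in black-labelled and 4.95 RPKM in yellow-labelled skin with p = 0.0514 in the authors' deposited table. The 5 measured cadherins had a median of -0.01, which was 0.07 when the floor was lowered to 0.1 RPKM and 0.12 when it was raised to 5 RPKM.

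The precursor and immature glia list had 13 measured members, 7 higher in black-labelled and 6 in yellow-labelled skin, with a median of 0.07 that became -0.01 at a floor of 5 RPKM. Of the 17 found, 0 had a q-value under 0.05 and 4 had a nominal p under 0.05 in the authors' deposited table. Over all tested genes the nominal share was 3.46%. The lists were chosen with earlier results known, so nothing is read from such counts. ADAM22, a receptor for LGI proteins on axons and glia, had 20.6 RPKM in black-labelled skin against 13.7 RPKM in yellow-labelled skin (p = 0.00325 in the authors' deposited table). ITGA4, an integrin of migrating crest cells, had 21.97 RPKM in black-labelled and 15.1 RPKM in yellow-labelled skin (p = 0.00775 in the authors' deposited table). FOXD3, a crest factor that holds precursors back from melanocyte fate, had 11.8 RPKM in black-labelled and 7.36 RPKM in yellow-labelled skin (p = 0.0148 in the authors' deposited table). GAP43, a growth-associated protein of axons and precursors, ran the other way with 2.79 RPKM in black-labelled skin against 4.99 RPKM in yellow-labelled skin (in the authors' deposited table, p = 0.00065 and q = 0.109). The most abundant members were NCAM1, an adhesion molecule, with 83.4 RPKM in black-labelled skin against 83.7 RPKM in yellow-labelled skin, TFAP2A with 55.9 RPKM in black-labelled and 53.3 RPKM in yellow-labelled skin, and ITGA6, a laminin receptor chain, with 21.7 RPKM in black-labelled and 26.9 RPKM in yellow-labelled skin.

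NGFR and GFRA3 are receptors for nerve growth factors of different families. NGFR, the p75 receptor that binds all neurotrophins, had 32.7 RPKM in black-labelled skin against 26.7 RPKM in yellow-labelled skin, a log2 ratio of 0.29 with p = 0.142 in the authors' deposited table. The ligands considered were low, NTF3 with 6.81 RPKM in black-labelled skin against 6.23 RPKM in yellow-labelled skin and BDNF with 3.30 RPKM in black-labelled and 4.70 RPKM in yellow-labelled skin. Kinase receptors that bind these ligands were lower still. NTRK3 had 2.22 RPKM in black-labelled skin against 1.92 RPKM in yellow-labelled skin, and NTRK2 0.19 RPKM in black-labelled and 0.23 RPKM in yellow-labelled skin. NGFR thus stood above each of these 4 genes in both stripes. SORT1 (11.2 RPKM black-labelled, 9.93 RPKM yellow-labelled) and SORCS2 (11.1 RPKM black-labelled, 9.80 RPKM yellow-labelled), coreceptors for the precursor forms of neurotrophins, lay between NTF3 and NGFR. The signalling partner ARHGDIA (112.4 RPKM black-labelled, 109.4 RPKM yellow-labelled), which acts in many pathways, was the most abundant of the list. Of its 10 measured members 8 were higher in black-labelled skin, with a median of 0.08, and 0 had a nominal p under 0.05 in the authors' deposited table.

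GFRA3, the coreceptor for artemin, had 0.20 RPKM in black-labelled skin against 0.37 RPKM in yellow-labelled skin. The ratio of 1.83-fold rests on values so low that the authors' deposited table gives p = 1, and with 1 RPKM added to both values the log2 ratio of -0.88 became -0.19. Its ligand ARTN (0.20 RPKM black-labelled, 0.18 RPKM yellow-labelled) and the signalling receptor RET (0.49 RPKM black-labelled, 0.65 RPKM yellow-labelled) were also under 1 RPKM in both stripes, as was GFRAL, a more distant member of the coreceptor family (0.07 RPKM black-labelled, 0.04 RPKM yellow-labelled). Higher levels were found for 3 other coreceptors, GFRA2 with 6.37 RPKM in black-labelled skin against 7.95 RPKM in yellow-labelled skin, GFRA1 with 5.55 RPKM in black-labelled and 6.14 RPKM in yellow-labelled skin, and GFRA4 with 3.79 RPKM in black-labelled and 2.56 RPKM in yellow-labelled skin. Of the 10 list members found, GFRA4 was the 1 with a nominal p under 0.05 in the authors' deposited table (p = 0.044, q = 1). Such a p was given to 3.46% of tested genes. The abundant members were SDC3, a proteoglycan that binds these ligands, with 74.1 RPKM in black-labelled skin against 69.0 RPKM in yellow-labelled skin, and GAS1, a related membrane protein, with 53.8 RPKM in black-labelled and 63.5 RPKM in yellow-labelled skin. The median over the 6 measured members was -0.19.

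EGR2, also named KROX20, is the transcription factor that drives myelination. It had 1.39 RPKM in black-labelled skin against 1.3 RPKM in yellow-labelled skin, the smallest ratio of the 8 genes at 1.07-fold. Both values of EGR2 lie near 1 RPKM, where 1 value per stripe says little about a difference. Its corepressors NAB1, with 27.3 RPKM in black-labelled skin against 25.9 RPKM in yellow-labelled skin, and NAB2, with 4.13 RPKM in black-labelled and 3.93 RPKM in yellow-labelled skin, were close to equal too. EGR1, the immediate early relative, had 19.4 RPKM in black-labelled and 19.9 RPKM in yellow-labelled skin. EGR3, also near 1 RPKM, had 1.10 RPKM in black-labelled and 1.13 RPKM in yellow-labelled skin. No gene of this group had a nominal p under 0.05, and its 4 measured members had log2 ratios between -0.04 and 0.08. Of the broader regulators of the Schwann cell lineage, 22 were measured and 16 were higher in black-labelled skin, with a median of 0.06. Of the 25 found, FOXD3, already counted in the precursor and immature glia list, was the 1 with a nominal p under 0.05. Such a p was given to 3.46% of tested genes. POU3F1, which acts just before EGR2 in Schwann cells, had 18.2 RPKM in black-labelled skin against 23.1 RPKM in yellow-labelled skin, and JUN, which opposes myelination, had 40.0 RPKM in black-labelled and 52.7 RPKM in yellow-labelled skin. The most abundant regulators were HDAC2 (212.6 RPKM black-labelled, 209.2 RPKM yellow-labelled), ID2 (133.0 RPKM black-labelled, 116.2 RPKM yellow-labelled) and ZEB2 (118.3 RPKM black-labelled, 109.8 RPKM yellow-labelled). The other 3 of the 25 found, SOX8, SOX2 and POU3F2, were under 1 RPKM in both stripes.

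Neuregulin signalling, which sustains precursors and sets myelin thickness, was near equal throughout. NRG1, the axonal ligand, had 0.47 RPKM in black-labelled skin against 0.49 RPKM in yellow-labelled skin, and ERBB2, the partner of ERBB3, had 14.1 RPKM in black-labelled and 13.7 RPKM in yellow-labelled skin. The most abundant member considered, AKT1 (51.8 RPKM black-labelled, 56.0 RPKM yellow-labelled), acts in many other pathways. The 11 measured members had log2 ratios between -0.17 and 0.24 with a median of -0.03, and 0 had a nominal p under 0.05 in the authors' deposited table.

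PTPRZ1 was the member with a difference. Its log2 ratio of black over yellow was -1.06, with p = 5e-05 and q = 0.0177 in the authors' deposited table, which are the lowest values in it, and 30 genes share that p. Among the 17 genes higher in yellow-labelled skin with a q-value under 0.05, PTPRZ1 ranked 15 by ratio and 9 by mean level. Of the 4702 genes with a mean within 2-fold of its own, 15 including PTPRZ1 had a ratio at least as far from equal, and 7 of those were higher in yellow-labelled skin. By the size of the ratio it ranked 65 among the 10061 measured genes. PTPRZ1 was chosen with this ratio known, so these ranks and counts describe it and test nothing.

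**Figure D3:**
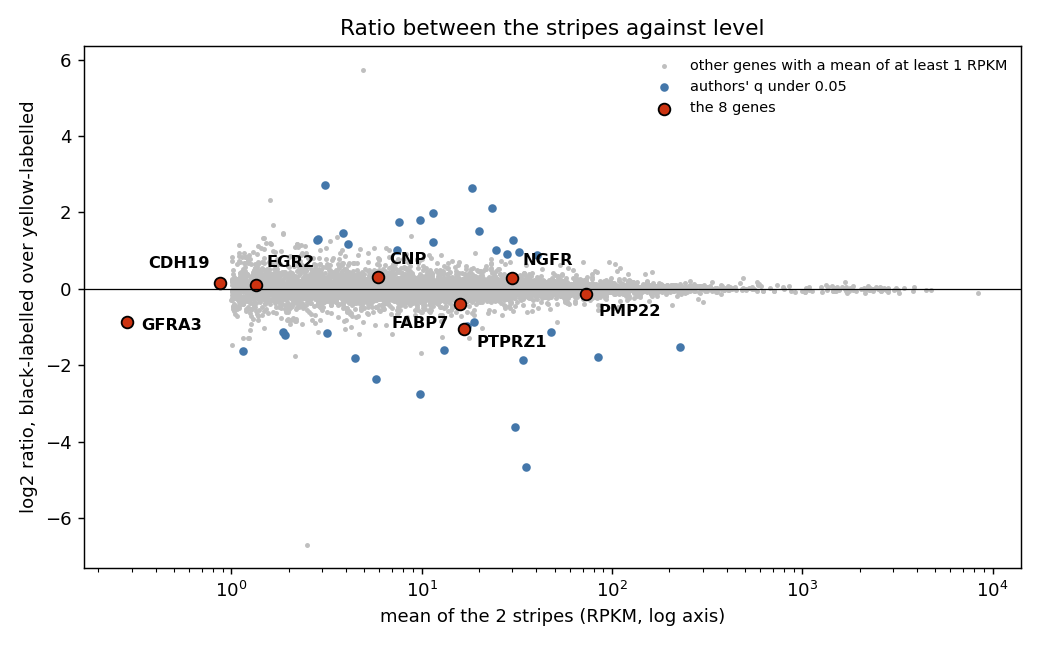
Log2 ratio of black-labelled over yellow-labelled against mean RPKM (log axis) for all measured genes (grey), genes with the authors' q under 0.05 (blue) and the 8 genes (red). PTPRZ1 at -1.06 lies below nearly all grey points at its level, the other measured members lie between -0.40 and 0.32, and GFRA3 and CDH19 lie left of 1 RPKM.

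The soluble ligands of PTPRZ1 were abundant in both stripes. MDK, midkine, had 205.7 RPKM in black-labelled skin against 234.9 RPKM in yellow-labelled skin, and PTN, pleiotrophin, had 21.1 RPKM in black-labelled and 22.4 RPKM in yellow-labelled skin. Their log2 ratios were -0.19 and -0.09. The matrix ligands were farther from equal and in the direction of PTPRZ1 itself. TNR, tenascin R, had 0.81 RPKM in black-labelled skin against 1.71 RPKM in yellow-labelled skin. Its log2 ratio was -1.08 (p = 0.001, q = 0.148 in the authors' deposited table), and -0.58 with 1 RPKM added to both values. Both values of TNR lie near 1 RPKM, where 1 value per stripe says little about a difference. TNC, tenascin C, had 24.3 RPKM in black-labelled and 36.2 RPKM in yellow-labelled skin, a log2 ratio of -0.57 (p = 0.00395 and q = 0.347 in the authors' deposited table). These were the 2 list members with a nominal p under 0.05, a call given to 3.46% of tested genes. Neither had a q-value under 0.05.

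The membrane partners CNTN1 (9.09 RPKM in black-labelled skin against 11.1 RPKM in yellow-labelled skin) and NRCAM (3.70 RPKM black-labelled, 4.51 RPKM yellow-labelled) each had a log2 ratio of -0.29, whereas NFASC (3.11 RPKM black-labelled, 2.64 RPKM yellow-labelled) had 0.24 and NCAM1 (83.4 RPKM black-labelled, 83.7 RPKM yellow-labelled) -0.01. ALK, a receptor kinase that responds to the same ligands, had 0.96 RPKM in black-labelled and 1.22 RPKM in yellow-labelled skin. The substrates lay on both sides of equal. CTNNB1, beta-catenin, had 614.1 RPKM in black-labelled and 561.2 RPKM in yellow-labelled skin, GIT1 a log2 ratio of 0.17, and FYN 22.7 RPKM in black-labelled and 23.1 RPKM in yellow-labelled skin, while MAGI1 and MAGI3 had log2 ratios of -0.14 and -0.15. The list held 3 of the enzymes that build chondroitin sulfate chains, CHST11 with 7.58 RPKM in black-labelled and 5.72 RPKM in yellow-labelled skin, XYLT1 with 14.4 RPKM in black-labelled and 11.8 RPKM in yellow-labelled skin and CHSY1 with 14.1 RPKM in black-labelled and 12.9 RPKM in yellow-labelled skin, each with a nominal p above 0.05 in the authors' deposited table. Of the 18 members, all measured, 12 were higher in yellow-labelled and 6 in black-labelled skin, with a median of -0.12.

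**Figure D4:**
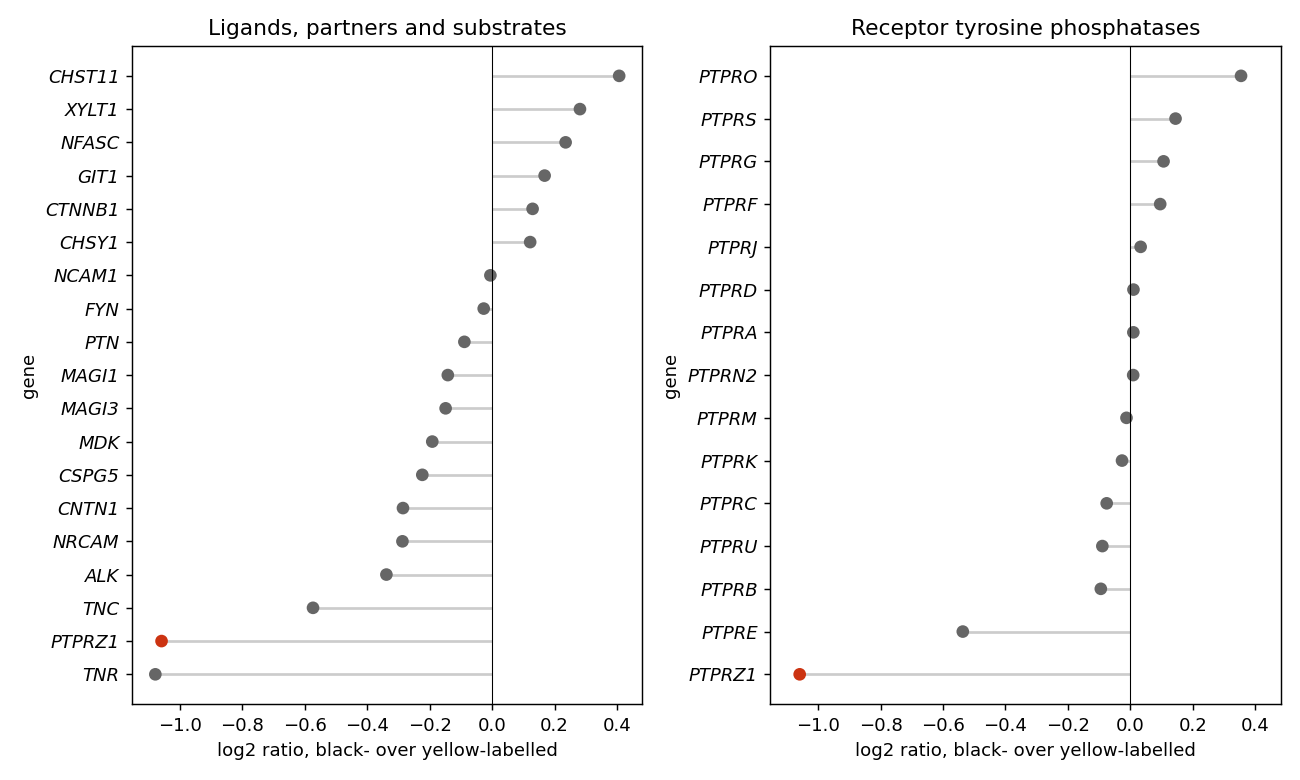
Log2 ratio of black-labelled over yellow-labelled for PTPRZ1 (red) beside its ligands, partners and substrates (left) and the other receptor tyrosine phosphatases (right) that were measured. TNR at -1.08, with a mean of only 1.26 RPKM, lies beside PTPRZ1 at -1.06 on the left. On the right the next lowest gene is PTPRE at -0.54, with a mean of 1.2 RPKM.

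The other measured receptor tyrosine phosphatases had ratios closer to equal than PTPRZ1. The farthest from equal was PTPRE at -0.54 (0.98 RPKM black-labelled, 1.42 RPKM yellow-labelled). PTPRG, the closest relative of PTPRZ1, had 11.6 RPKM in black-labelled skin against 10.8 RPKM in yellow-labelled skin. The most abundant were PTPRF (90.5 RPKM black-labelled, 84.6 RPKM yellow-labelled), PTPRS (58.1 RPKM black-labelled, 52.5 RPKM yellow-labelled) and PTPRU (33.3 RPKM black-labelled, 35.4 RPKM yellow-labelled). Of the 14 measured relatives 8 were higher in black-labelled and 6 in yellow-labelled skin, with log2 ratios between -0.54 and 0.36 and a median of 0.01, and 0 had a nominal p under 0.05 in the authors' deposited table. The difference between the ratio of PTPRZ1 and those of its relatives was not tested.

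Most melanocyte markers were higher in yellow-labelled skin, as PTPRZ1 was, and several by a larger ratio. All 9 found in the table were measured, and 7 were higher in yellow-labelled skin, with a median log2 ratio of -1.51. Their summed level was 204.7 RPKM in black-labelled skin against 590.2 RPKM in yellow-labelled skin. Of these, 5 fell under a q-value of 0.05 by the authors' deposited table, all higher in yellow-labelled skin: PMEL (118 RPKM black-labelled, 336 RPKM yellow-labelled), TYRP1, MLANA (14.7 RPKM black-labelled, 53.5 RPKM yellow-labelled), TYR (4.68 RPKM black-labelled, 57.3 RPKM yellow-labelled) and DCT (2.54 RPKM black-labelled, 17.2 RPKM yellow-labelled). Over all tested genes 0.331% had such a q-value and 3.46% a nominal p under 0.05, and this list was chosen with earlier results known. OCA2 was the further gene with a nominal p under 0.05, at 0.53 RPKM in black-labelled and 1.48 RPKM in yellow-labelled skin. MITF, which marks the lineage more broadly, had a log2 ratio of -0.25. The 2 markers higher in black-labelled skin were KIT, the stem cell factor receptor, with a log2 ratio of 0.39, and SLC45A2, a melanosome transporter, with 9.15 RPKM in black-labelled and 7.31 RPKM in yellow-labelled skin, neither with a nominal p under 0.05 in the authors' deposited table. The part of melanocytes in the PTPRZ1 difference was not tested.

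Markers of neurons, whose axons Schwann cells accompany, gave no common direction. Of the 15 found, 10 were measured, with a summed level over all 15 of 87.1 RPKM in black-labelled skin against 84.3 RPKM in yellow-labelled skin. TUBB3 was higher in black-labelled skin (10.4 RPKM black-labelled, 5.99 RPKM yellow-labelled), and GAP43 and ELAVL4 (4.07 RPKM black-labelled, 6.41 RPKM yellow-labelled) were higher in yellow-labelled skin, all 3 by nominal p in the authors' deposited table and none with a q-value under 0.05. GAP43 was also counted in the precursor and immature glia list, and over all tested genes 3.46% had a nominal p under 0.05. DCX (38.3 RPKM black-labelled, 38.9 RPKM yellow-labelled) and MAP2 (log2 ratio -0.01) were the most abundant. The median of 0.28 was 0.19 when the floor was lowered to 0.1 RPKM and -0.01 when it was raised to 5 RPKM.

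By the authors' deposited table, 0 markers of the other cells of skin fell under a q-value of 0.05. The 11 dermal fibroblast markers had a median log2 ratio of 0.03 and were led by the collagens COL1A2 (538.7 RPKM black-labelled, 528.9 RPKM yellow-labelled) and COL3A1 (434.4 RPKM black-labelled, 431.1 RPKM yellow-labelled) and the proteoglycan DCN (531.5 RPKM black-labelled, 439.1 RPKM yellow-labelled). The 8 epidermal markers had a median of -0.15 and were led by EPCAM (110.9 RPKM black-labelled, 126.3 RPKM yellow-labelled), CLDN1 (97.6 RPKM black-labelled, 121.6 RPKM yellow-labelled) and DSP (98.5 RPKM black-labelled, 108.3 RPKM yellow-labelled). The 9 endothelial markers had a median of -0.08 and were led by CDH5, PECAM1 (16.8 RPKM black-labelled, 17.8 RPKM yellow-labelled) and CLDN5 (15.6 RPKM black-labelled, 14.7 RPKM yellow-labelled). Higher in yellow-labelled skin were 7 of the 8 epidermal, 3 of the 11 fibroblast and 6 of the 9 endothelial markers. None of these 3 lists had a member with a nominal p under 0.05. Over 5 measured skeletal muscle markers the median was 0.95, and TNNC1 (25.1 RPKM black-labelled, 13.0 RPKM yellow-labelled), PAX7 (4.25 RPKM black-labelled, 2.01 RPKM yellow-labelled) and DES (2.94 RPKM black-labelled, 1.36 RPKM yellow-labelled) had a nominal p under 0.05 and were higher in black-labelled skin, while ACTA1 had 6.75 RPKM in black-labelled and 7.89 RPKM in yellow-labelled skin. Over all tested genes 3.46% had a nominal p under 0.05. The other 5 of the 10 muscle markers found were not measured, among them MYOD1 (0.14 RPKM black-labelled, 0.03 RPKM yellow-labelled). MYOG, MYF5 and MYF6 stayed under 0.1 RPKM in both stripes. The summed level of all 10 was 41.2 RPKM in black-labelled skin against 25.6 RPKM in yellow-labelled skin, with TNNC1 the most abundant. The part of muscle in any ratio of the 8 genes was not tested.

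**Figure D5:**
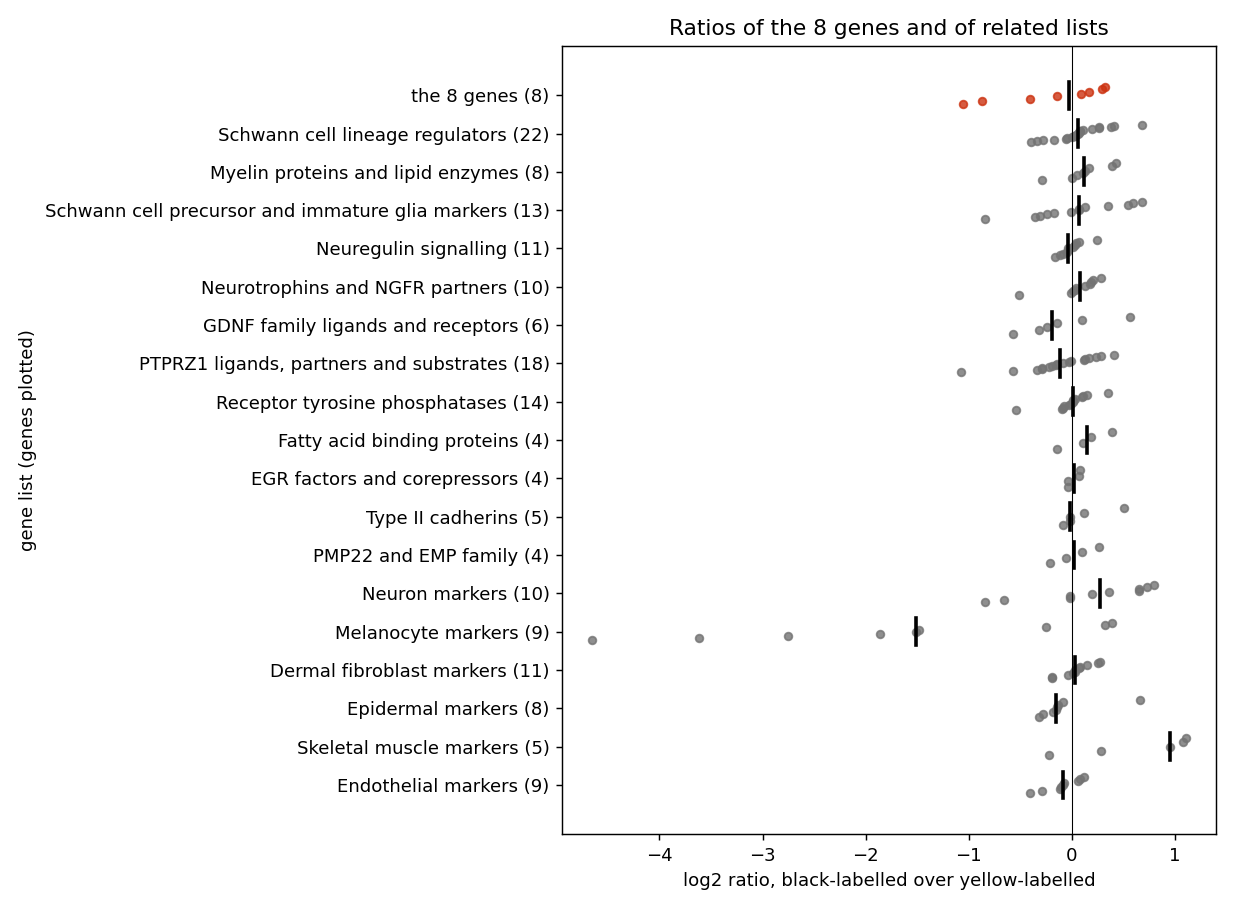
Log2 ratio of black-labelled over yellow-labelled for the 8 genes (red) and for the measured members of 18 related lists (grey), with the median of each row as a black bar and the number of genes plotted in brackets. The melanocyte row has its median at -1.51 and the skeletal muscle row at 0.95, while the medians of the other rows lie between -0.19 and 0.28.

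Measured genes next to 5 of the 8 on the chromosome were close to equal between stripes. Neighbours were taken from the RefSeq assembly Coturnix japonica 2.1, in which 7 of the 8 genes were placed; the authors' build was not stated, so no positions are printed. Looking at the 3 loci on each side, 18 neighbours of FABP7, NGFR, EGR2, CNP and PTPRZ1 were measured, and their log2 ratios lay between -0.31 and 0.19 with 0 at a nominal p under 0.05 in the authors' deposited table. Beside PTPRZ1 these were FAM3C (24.7 RPKM in black-labelled skin against 24.3 RPKM in yellow-labelled skin), AASS (13.0 RPKM black-labelled, 13.6 RPKM yellow-labelled) and WNT16 (2.996 RPKM black-labelled, 2.634 RPKM yellow-labelled). In that assembly 2 long noncoding loci overlap PTPRZ1 and 1 overlaps NGFR. Whether reads were assigned by strand was not stated, so reads of an overlapping locus cannot be told apart from reads of the gene itself.

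Other calls named the same gene, PTPRZ1, which was chosen with its ratio known, so nothing is read from that sameness. At a q-value under 0.1 the count was again 1, against 0.539% of tested genes. A ratio of 1.5-fold or more, with the higher stripe at 1 RPKM or above, was reached by 1 of the 8 genes, PTPRZ1. Of the 10165 genes with at least 1 RPKM in a stripe, 3.34% reached it. CDH19 and GFRA3 lie outside those 10165 genes, being under 1 RPKM in both stripes. Summed over the 7 genes other than PTPRZ1, the level was 124.4 RPKM in black-labelled skin against 128.9 RPKM in yellow-labelled skin, and their median log2 ratio was 0.09.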

How the data were processed

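RNA was extracted with Trizol and sequenced from TruSeq libraries, per the labels. TopHat2 2.1.1 and Cufflinks 2.2 are listed in the submitters' processing notes. The sources used here do not state the build, gene models or strand setting, or how a stripe's libraries were combined. The authors' RPKM values, 1 per stripe, were used as deposited. The unadjusted p-value per gene was taken from the sheet of the RPKM values and was the same in another deposited sheet. From that other sheet, a QIAGEN export per the file headers, came the q-value and the authors' log2 ratio. For the 10503 genes at or above 0.5 RPKM in each stripe, that log2 ratio and the one of the RPKM columns differed by under 0.01. A further 3 columns of values, which name no stripe or only mark genes, were not used. Of 12419 rows, 11 with date numbers for symbols and 25 sharing 4 repeated IDs were left out, and 11844 of the 12383 kept symbols are in RefSeq. Total counts are not in the table, so depth is unknown.

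Black over yellow log2 ratios were formed without a pseudocount (Python 3.11.15, pandas 2.3.3, numpy 2.4.6), and the code was tested on simulated data. A gene counted as past the threshold at the authors' q-value under 0.05 over their whole table. With 1 value per stripe, no new test was made. The 8 genes and the 18 lists were chosen with earlier results of these data known. List medians and directions cover members with a mean of at least 1 RPKM, and counts by p or q cover all members in the table. Named are all 8 genes and, of each list, members with a q-value under 0.05, up to 6 with a nominal (unadjusted) p under 0.05, the 3 most abundant, and partners or relatives of the 8 genes. Any other list member named was picked after seeing the values. Some list members are not reported here and enter no list count. Alternatives covered pseudocounts, scaling, RPKM floors and thresholds.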

Additional observations from a re-analysis of the deposited data

How the results depend on the processing

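No paired analysis was possible because the table has 1 value per stripe, and for the same reason no library could be left out in turn. Of 40 recomputed ratios of the 8 genes (pseudocounts of 1 and 0.1 RPKM, median and upper quartile scaling, the authors' own ratio), 0 had the other sign and 2 moved by 0.1 or more, both of GFRA3, to -0.19 and -0.64 with the pseudocounts. Scaling shifted all ratios by 0.00 and -0.01. The median of the 8 genes, -0.03, was -0.15 over the members with a mean of at least 5 RPKM and 0.093 without PTPRZ1, so its sign rests on which genes are included. The count among the 8 genes was 1, PTPRZ1, at each threshold, where the 1.5-fold call required 1 RPKM in the higher stripe. Without that floor 2 of the 8 genes were at least 1.5-fold apart, PTPRZ1 and GFRA3. PTPRZ1 was chosen with its ratio known, so the unchanged count is a description and no support. Over all genes the count of 35 became 366 at a nominal p under 0.05, 57 at a q-value under 0.1 and 340 at 1.5-fold. Of 34 recomputed list medians 3 moved by 0.1 or more, all at a floor of 5 RPKM, where type II cadherins had 0.12, neuron markers -0.015 and melanocyte markers -1.69, each by the change of genes included. In 5 of the 34 the sign changed, for type II cadherins at both floors and, at 5 RPKM, for precursor and immature glia, PMP22 and EMP, and neuron markers. With depth unknown, no limit of detection can be given for GFRA3, CDH19 or the genes listed at 0.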
